A study of Mus musculus with 3 samples.

Results

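Regulators of G-protein signalling (RGS proteins) were examined in primary mouse peritoneal macrophages that had been left untreated, kept with apoptotic cells or treated with LPS. The set holds 7 genes, Rgs1, Rgs2, Rgs10, Rgs14, Rgs16, Rgs18 and Rgs19, out of 20574 gene symbols per library. They were chosen by symbol with their levels in these libraries already known, so the levels below are a description and carry no test. Of the 7, 5 have a row in the tables and 3 (Rgs2, Rgs16 and Rgs18) were above 0 in every library. Rgs10 and Rgs19 were not analysed here.

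The study has 3 libraries, 1 per condition, all from macrophages labelled WT and kept in DMEM. In the apoptotic-cell library 5 apoptotic cells per macrophage were added for 5 h, and cells that were not taken up were rinsed off. LPS, a bacterial cell-wall lipid that activates macrophages through Toll-like receptor signalling, was given at 100 ng/ml for 5 h. The untreated library has no stated time, so treatment cannot be told apart from time in culture or handling, nor, with 1 library each, from differences between the mice used. The sources used here do not name the strain, the age or number of mice, or the origin of the apoptotic cells. With 1 library per group there is no replicate error, and every difference is one between libraries. In bulk RNA, fewer cells of a type and less RNA per cell cannot be told apart. Nor can RNA of the macrophages be told apart from RNA of apoptotic cells they took up.

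RGS proteins are GTPase-activating proteins. They speed the hydrolysis of GTP on the alpha subunit of heterotrimeric G proteins and so shorten the signal that a chemokine, lipid or purine receptor sends into the cell. Rgs1, Rgs2, Rgs16 and Rgs18 belong to the small R4 class, which consists of little more than the RGS domain. Rgs10 and Rgs14 belong to the R12 class, and Rgs19 to the RZ class. In leukocytes, R4 members are known as brakes on migration towards chemokines, and many are themselves induced by cell activation.

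Sequences are shown for Rgs16 and Rgs2, the members with the highest levels, because both were over 2-fold lower with LPS than without treatment, but with apoptotic cells this held for Rgs16 alone. Each is the 250 bases just upstream of the annotated start in RefSeq (GRCm38.p6), read 5′ to 3′ on the gene's strand. Of the 5 analysed members these 2 had an entry in the table used. The Rgs16 window is chr1:153740103-153740352 on the plus strand, and the Rgs2 window is chr1:144004150-144004399 on the minus strand. Capitals mark the short core of the cyclic AMP response element (CRE), TGACG or its reverse complement.
Rgs16: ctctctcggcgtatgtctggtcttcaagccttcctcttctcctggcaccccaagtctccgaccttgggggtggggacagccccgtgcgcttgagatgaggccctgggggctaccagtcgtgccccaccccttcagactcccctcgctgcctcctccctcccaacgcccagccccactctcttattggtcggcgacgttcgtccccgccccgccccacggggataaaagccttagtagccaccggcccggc
Rgs2: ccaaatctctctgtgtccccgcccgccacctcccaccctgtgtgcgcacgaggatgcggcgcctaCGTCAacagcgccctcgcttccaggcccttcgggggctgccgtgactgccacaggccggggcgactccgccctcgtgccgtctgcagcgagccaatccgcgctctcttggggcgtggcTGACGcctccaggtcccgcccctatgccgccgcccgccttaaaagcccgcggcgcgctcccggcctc

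The Rgs2 window held the core at 2 places, from 67 to 63 and from 185 to 181 bases upstream, once on each strand, and the Rgs16 window held none. Counting a match on either strand, 17.8% of 32851 promoter windows of that length hold this core. The share that holds it at 2 places, as Rgs2 does, was not computed. The full CRE, TGACGTCA, which contains the core, was in neither window and in 1.55% of all windows. The NF-kB consensus was in neither and in 7.25% of all. These matches are letters in a window and describe no binding. GC content was 66.4% for Rgs16 and 72.4% for Rgs2.

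Values are FPKM, which scale read fragments to transcript length and to the mapped total, so levels can be compared between genes. Rgs16 stood at 35.0 FPKM in the untreated library, 1.52 FPKM with apoptotic cells and 3.08 FPKM with LPS. It was therefore high in the untreated library alone, where it ranked 803 among 6747 genes above 0. Rgs16 acts on the Gi and Gq classes of alpha subunit. The gene has a single transcript in GENCODE M21 and lies on chromosome 1 from 153740349 to 153745468 on the plus strand of mm10.

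Rgs2, which acts preferentially on Gq, had a different order. It stood at 26.3 FPKM untreated, 21.9 FPKM with apoptotic cells and 2.94 FPKM with LPS. The untreated and apoptotic-cell libraries were close to each other, and the LPS library was low. Rgs2 lies on chromosome 1 from 143999338 to 144004161 on the minus strand.

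Rgs18, a member found mainly in blood cells and best known from platelets, was highest with apoptotic cells. It stood at 1.96 FPKM untreated, 16.5 FPKM with apoptotic cells and 0.364 FPKM with LPS. Its order was thus unlike that of both other genes above 0 throughout. Rgs18 lies on chromosome 1 from 144752683 to 144775435 on the minus strand and has 1 annotated transcript.

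Rgs1, an activation-induced gene of lymphocytes and macrophages that limits chemokine responses, was listed at 10.8 FPKM with LPS and at 0 in both other libraries. Rgs14, a scaffold that joins an RGS domain to Ras-binding domains and a second G-alpha binding motif, was listed at 0.483 FPKM with LPS and at 0 in both others. Rgs1 lies on chromosome 1 from 144242296 to 144249242 and Rgs14 on chromosome 13 from 55369732 to 55384687. A listed 0 is not evidence of absence in these tables. Of 5852 genes above 0 in both treated libraries, 38.6% were listed at 0 in the untreated one. The corresponding share was 18.6% of 4412 genes for apoptotic cells and 21.9% of 4598 for LPS. No fold was formed against a listed 0.

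**Figure D1:**
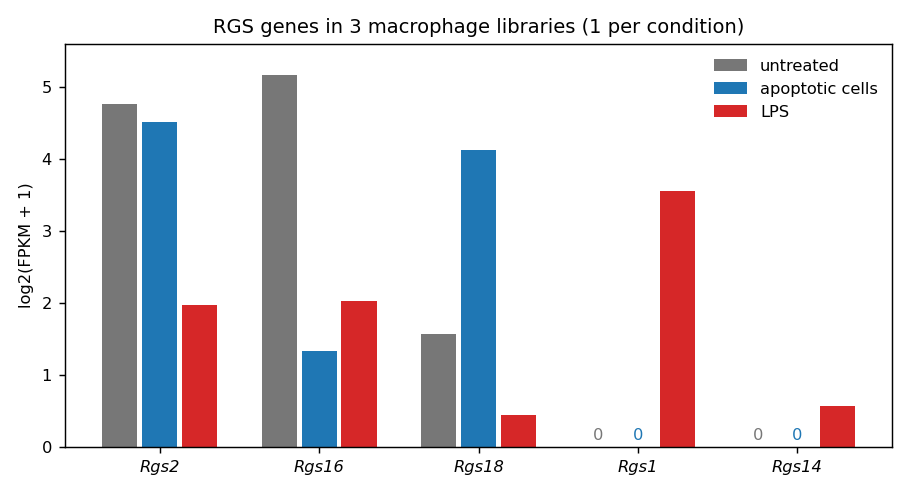
Level of the 5 analysed RGS genes, as log2(FPKM + 1), for untreated (grey), apoptotic-cell (blue) and LPS-treated (red) macrophages; each bar is 1 library and a printed 0 is a value listed as 0. Rgs16 is high in the untreated library, Rgs18 with apoptotic cells, Rgs2 in both of these, and Rgs1 and Rgs14 are above 0 with LPS only.

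The depth is not stated in the sources used here. Low values of genes with 1 annotated transcript, a coding one, lay loosely around multiples of one step. The step was worth about 0.315 FPKM for 1 read per kb without treatment and with apoptotic cells, and about 0.32 FPKM with LPS. The fit score was 0.31, 0.28 and 0.29 in the order untreated, apoptotic cells and LPS, where 1 would be exact multiples. The step and the length taken off each transcript trade off, so all read numbers are approximate. On that scale Rgs16 corresponds to about 238, 10 and 21 reads and Rgs18 to about 11, 96 and 2 reads. Rgs14, converted by its 1 coding transcript of 4 annotated, corresponds to about 3 reads with LPS. The low ends of Rgs16 and Rgs18 and the whole signal of Rgs14 therefore rest on few reads. Rgs1 and Rgs2 have more than 1 coding transcript and were not converted. Exact binomial 95% intervals below use these estimated reads and cover counting error only.

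Between the apoptotic-cell and untreated libraries, 2 of the 3 RGS genes with a ratio differed, in opposite directions. Rgs16 was 23.1-fold lower in FPKM with apoptotic cells (interval 12.3 to 48.8), and Rgs18 was 8.42-fold higher (interval 4.50 to 17.4). Rgs2 stood at 0.833 of its untreated FPKM. On the log2(FPKM + 1) scale, which understates the differences of low genes, the ratios were -3.84 for Rgs16, 2.56 for Rgs18 and -0.25 for Rgs2. At least 2-fold on that scale, 1 member was higher, beside 12.4% of 3369 genes above 0 in both libraries, and 1 was lower, beside 16.4%. Because the members were picked with these values known, nothing is read from the counts. Rgs16 had the 6th lowest ratio of the 3369 genes and Rgs18 the 38th highest, while Rgs2 lay near the median of all genes (-0.13).

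LPS serves as the inflammatory counterpart, and with it all 3 RGS genes with a ratio were lower than without treatment. Rgs16 was 11.4-fold lower in FPKM (interval 7.27 to 18.7) and Rgs2 8.95-fold lower. Rgs18 was 5.39-fold lower, with an interval from 1.18 to 50.1 because its LPS value stands for about 2 reads. The log2(FPKM + 1) ratios were -3.14 for Rgs16, -2.79 for Rgs2 and -1.12 for Rgs18. At least 2-fold, 3 members were lower, beside 26.2% of 3421 genes, and 0 were higher, beside 8.51%. The median of all genes was itself -0.40, and relative to it the ratios were -2.74, -2.39 and -0.71. With median-of-ratios scaling Rgs18 stood at -0.84 and was no longer 2-fold lower. Rgs1, by contrast, was above 0 only in the LPS library.

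Set directly against LPS, the apoptotic-cell library had more Rgs18 and Rgs2, and Rgs16 was low in both. Rgs18 was 45.4-fold higher in FPKM (interval 12.2 to 380.1, again from about 2 reads with LPS), and Rgs2 was 7.45-fold higher. Rgs16 was 2.03-fold lower with apoptotic cells, with an interval from 0.915 to 4.83 that includes no difference. The log2(FPKM + 1) ratios were 3.68, 2.54 and -0.70. At least 2-fold, 2 members were higher, beside 15.7% of 4599 genes, and 0 were lower, beside 5.54%. Rgs16 was just past the 2-fold line with median-of-ratios scaling (-1.002). The 3 comparisons share libraries, so their values are not independent of one another.

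**Figure D2:**
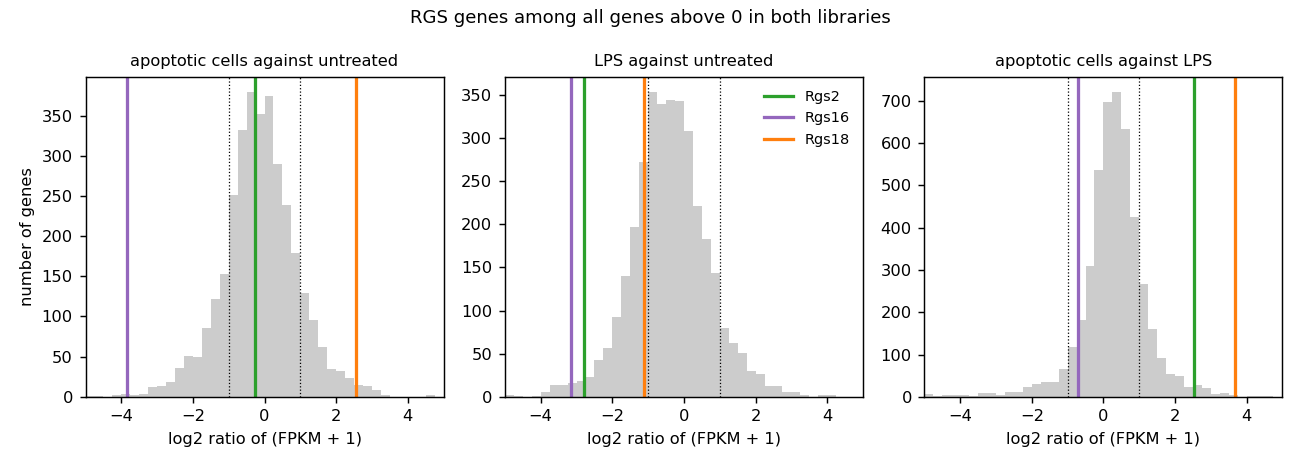
Number of genes (grey bars) by log2 ratio of FPKM + 1 in each comparison, over genes above 0 in both libraries with a mean of at least 1 FPKM; values beyond 5 in size are drawn in the end bars, dotted lines mark 2-fold, and coloured lines mark Rgs2, Rgs16 and Rgs18. Rgs16 lies at -3.84 and -3.14 against untreated, Rgs2 moves from -0.25 to -2.79, and Rgs18 lies at 2.56 with apoptotic cells and at -1.12 with LPS.

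The balance of all genes depends on scaling. With median-of-ratios scaling, 537 genes were higher and 415 lower with apoptotic cells than without treatment, against 418 and 554 as deposited. For LPS against untreated the counts were 650 and 436, against 291 and 896, and for apoptotic cells against LPS 416 and 448, against 722 and 255. The median of all genes moved from -0.13 to 0.06, from -0.40 to 0.12 and from 0.32 to -0.02 in the 3 comparisons. The sign of each member's ratio was the same under every scaling tried.

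Of the 5 analysed members 4 lie on chromosome 1, and 3 of them in one run. From Rgs2 to Rgs18 the annotation holds 5 protein-coding genes over 776 kb, and all 5 are RGS genes on the minus strand: Rgs2, Rgs13, Rgs1, Rgs21 and Rgs18. Start sites lie 173 kb (Rgs13), 245 kb (Rgs1), 564 kb (Rgs21) and 771 kb (Rgs18) from that of Rgs2. The genes of the run did not all share a pattern. The adjacent Rgs13 and Rgs1 were alike only by way of listed 0 values, which are not evidence of absence, and Rgs13 was low with LPS too. Rgs2 was low with LPS, Rgs13 and Rgs1 were above 0 with LPS only (0.732 and 10.8 FPKM), and Rgs18 was highest with apoptotic cells. Rgs21 was not analysed here. Rgs16 lies 9736 kb from Rgs2, beside Rgs8, which was listed at 0 in all 3 libraries.

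**Figure D3:**
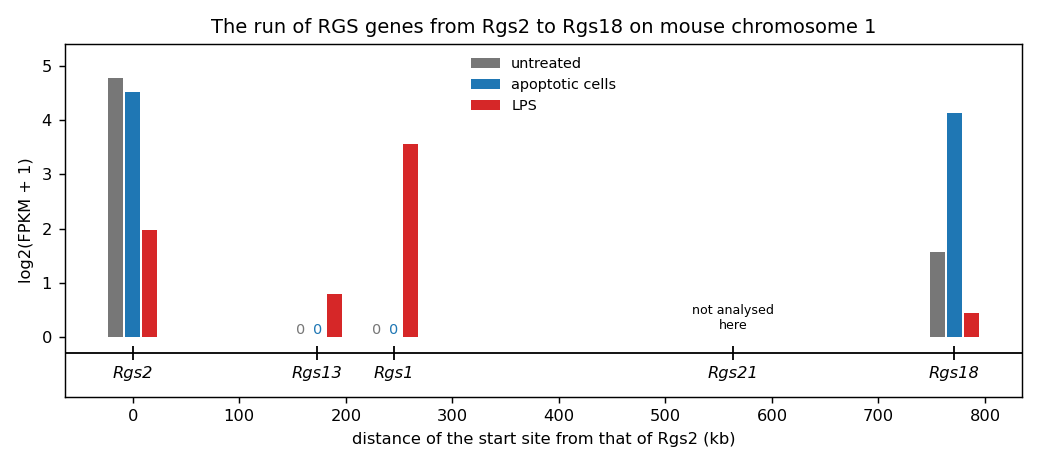
Level, as log2(FPKM + 1), of the RGS genes from Rgs2 to Rgs18 against the distance of their start sites from that of Rgs2 in kb; bars are untreated (grey), apoptotic-cell (blue) and LPS-treated (red) macrophages and a printed 0 is a value listed as 0. Rgs2 is lowest with LPS, Rgs18, 771 kb away, is highest with apoptotic cells, and Rgs13 and Rgs1 between them are above 0 with LPS only.

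Most of the rest of the RGS family was listed at 0 or below 1 FPKM. The list of 19 further genes includes Rgs7bp and Rgs9bp, which encode binding proteins of RGS proteins. Of these 19, 18 had a row, 11 were above 0 in some library and 7 (Rgs4, Rgs5, Rgs6, Rgs7, Rgs8, Rgs20 and Rgs22) were listed at 0 in all. Only 2 reached 1 FPKM anywhere. Axin1, the scaffold of the beta-catenin destruction complex, was listed at 0, 9.45 and 9.42 FPKM in the order untreated, apoptotic cells and LPS. Rgs3, another R4 member, was above 0 only with apoptotic cells, at 2.92 FPKM. These 2 genes thus differ from the untreated library by way of a listed 0. Rgs12, of the R12 class, was the only one above 0 in every library, at 0.286, 0.292 and 0.311 FPKM in the order untreated, apoptotic cells and LPS. Rgs9, Rgs11, Rgs17, Rgs7bp, Rgs9bp, Rgsl1 and Axin2 stayed between 0 and 0.734 FPKM.

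The proteins on which RGS proteins act, and their partners, had few ratios. Among alpha subunits, 2 of 12 genes with a row had a ratio for apoptotic cells against untreated and neither differed 2-fold (median -0.18, against -0.13 for all genes). Over all genes in that comparison, 12.4% were higher and 16.4% lower. For LPS, 1 of 3 was lower, beside 26.2% of all genes, and 0 higher, beside 8.51% (median -0.97, against -0.40). Gna15, the Gq-class subunit of blood cells, stood at 7.52, 7.91 and 2.02 FPKM in the order untreated, apoptotic cells and LPS. Like Rgs2, it was low with LPS only. Gna11, also of the Gq class, stood at 4.79, 3.29 and 1.97 FPKM, and Gnai3, a Gi subunit, at 70.3, 0 and 123 FPKM. The subunit genes therefore did not share a single order.

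Among beta and gamma subunits, 1 of 3 genes was lower in each comparison with the untreated library and 0 were higher (medians 0.44 and 0.71). The lower one was Gng2, at 14.1, 4.49 and 1.04 FPKM. Over all genes, 16.4% were lower and 12.4% higher with apoptotic cells (median -0.13), and 26.2% and 8.51% with LPS (median -0.40). Gng5, the most abundant gamma subunit gene here, stood at 297, 444 and 487 FPKM. Gnb4 (0.466, 0.985 and 1.66 FPKM) and Gng10 (0, 41.5 and 27.1 FPKM) were likewise lowest or listed at 0 in the untreated library. Other modulators had 0 of 2 genes past 2-fold in each comparison with the untreated library (medians 0.11 and -0.23). Ric8, a chaperone and exchange factor for alpha subunits, stood at 32.2, 31.3 and 36.2 FPKM, and Gpsm2, which binds Gi subunits, at 1.92, 2.49 and 0.899 FPKM. Against LPS, the beta-arrestin gene Arrb1 was higher with apoptotic cells (17.0 against 6.47 FPKM). In that comparison 1 of 2 alpha subunits, 1 of 4 beta and gamma subunits and 1 of 3 modulators were higher and 0 lower, beside 15.7% of all genes higher and 5.54% lower.

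Among effectors, 0 of 1 gene with apoptotic cells and 0 of 2 with LPS passed 2-fold against untreated (medians -0.42 and -0.29). Over all genes, 12.4% were higher and 16.4% lower with apoptotic cells (median -0.13). With LPS these shares were 8.51% and 26.2% (median -0.40). Prkacb, a catalytic subunit of the cyclic AMP-dependent kinase, stood at 20.6, 15.2 and 10.6 FPKM, and Prkaca, another, at 0, 25.7 and 14.9 FPKM. The phospholipase gene Plcb3 (0, 5.88 and 5.34 FPKM) and the phosphodiesterase gene Pde4d (1.98, 0 and 2.72 FPKM) each had a listed 0. Pde4b, which degrades cyclic AMP, was listed at 0, 3.42 and 85.0 FPKM. It was the 1 of 4 effectors lower with apoptotic cells than with LPS, beside 5.54% of all genes, and 0 were higher, beside 15.7%. Proteins with an RGS-like domain had a ratio for 1 gene in that comparison, the kinase-anchoring gene Akap10 (12.4 against 9.17 FPKM). It did not reach 2-fold.

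Receptors for chemoattractants, lipids and purines, some of which couple to Gs, had the most genes with a ratio. With apoptotic cells 1 of 9 was higher, beside 12.4% of all genes, and 4 were lower, beside 16.4% (median -0.92, against -0.13). With LPS 3 of 9 were higher, beside 8.51%, and 3 lower, beside 26.2% (median -0.76, against -0.40). Against LPS, 3 of 7 were higher with apoptotic cells, beside 15.7%, and 2 lower, beside 5.54% (median 0.81, against 0.32 for all genes). Cxcr5, a chemokine receptor of B cells, had the largest ratio with apoptotic cells and was listed at 214, 12.1 and 0 FPKM in the order untreated, apoptotic cells and LPS. Like Rgs16, it was high in the untreated library alone. C5ar1, the receptor for complement C5a, stood at 33.8, 308 and 175 FPKM. S1pr1, a receptor for the lipid sphingosine-1-phosphate, stood at 150.2, 56.1 and 16.6 FPKM. The adenosine receptor gene Adora2b stood at 10.8, 2.16 and 65.7 FPKM, so it was highest where Rgs2 was lowest. No test bears on that difference of order. The lipid receptor genes S1pr2 (6.64, 12.3 and 2.84 FPKM) and Ptger4 (6.96, 6.05 and 2.14 FPKM) were lowest with LPS, as Rgs2 was. S1pr4 stood at 16.2, 2.203 and 0 FPKM and Ptger2 at 2.204, 5.11 and 7.77 FPKM, which are opposite orders.

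The genes nearest to each member in pattern were taken from 1657 genes above 0 in all 3 libraries with a mean of at least 5 FPKM. Nearness was the Euclidean distance between log2(FPKM + 1) profiles centred on each gene's mean, over 3 libraries only, so it describes little more than an order of levels. Nearest to Rgs16 were Ly6d (distance 0.16), Xist (0.38) and Lysmd2 (0.48). Ly6d, a surface protein of early B-lineage cells, stood at 563, 42.7 and 73.9 FPKM. Xist, the RNA of the inactive X chromosome in female cells, stood at 22.8, 0.788 and 1.04 FPKM, so it too was high in the untreated library alone. The labels give no sex, and the part of the mice in the Rgs16 values was not tested. Nearest to Rgs2 were AI467606 (0.14), Pqlc3 (0.17) and Sgsh, which encodes a lysosomal sulfatase (0.23). Nearest to Rgs18 were Nceh1, which splits cholesteryl esters (0.15), Xdh, which encodes xanthine dehydrogenase (0.19), and Mmp8, a neutrophil collagenase (0.21).

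**Figure D4:**
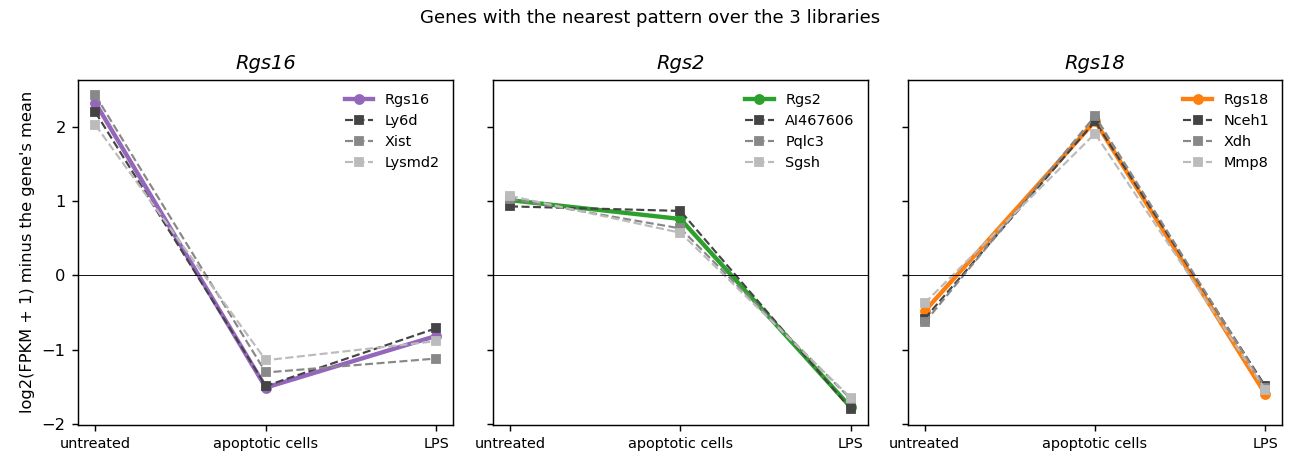
Centred log2(FPKM + 1) without treatment, with apoptotic cells and with LPS for Rgs16, Rgs2 and Rgs18 (solid coloured lines) and for the 3 genes nearest to each (dashed grey lines); each point is 1 library. The 3 members have separate patterns, and the nearest genes lie within 0.48 of their member by distance.

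Several RGS genes are also active in other leukocytes, and markers of these moved between the libraries. Of the macrophage markers, Csf1r (56.3, 185 and 0 FPKM) and Cd14 (303, 555 and 0 FPKM) had a row, both listed at 0 with LPS, and the other 5 of 7 were not analysed here. All 9 B-cell markers used had a row, with 4, 7 and 8 above 0 and summed levels of 863, 209 and 165 FPKM in the order untreated, apoptotic cells and LPS. The untreated sum was carried by Ly6d (563 FPKM) and Cxcr5 (214 FPKM), which were highest where Rgs16 was highest. Blnk (82.7, 38.4 and 18.5 FPKM) and Cr2 (3.44, 0.096 and 0.198 FPKM), the others above 0 in the untreated library, were also highest there. Cd79a, Cd79b, Ms4a1, Cd22 and Pax5 were listed at 0 in that library, which is not evidence of absence, and above 0 with LPS. Mast cell markers, 7 of 7 with a row, summed to 93.0, 13.8 and 10.2 FPKM, with Ms4a2 at 0 throughout. Their part in the Rgs16 values was not tested.

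Thymocyte and T-cell markers, 11 of 11 with a row, summed to 31.0, 96.4 and 2.21 FPKM. The higher sum with apoptotic cells rests on genes listed at 0 in the untreated library, chiefly Rag1 (0, 41.2 and 0.679 FPKM). Cd3g (12.6, 10.6 and 0 FPKM), Cd4, Rag2 and Dntt, the 4 above 0 in both of those libraries, were each somewhat lower with apoptotic cells. Neutrophil markers, 6 of 8 with a row, summed to 53.5, 137 and 224 FPKM, carried by S100a8 (48.1, 116 and 222 FPKM). Camp was also highest with LPS, whereas Mmp8 (2.48, 15.98 and 0.548 FPKM) and Ngp (0.611, 2.27 and 0 FPKM) were highest with apoptotic cells, as Rgs18 was. S100a9 (1.65, 1.79 and 0 FPKM) was also highest there, but close to its untreated level. Cxcr2 (0, 0.108 and 0 FPKM) was above 0 with apoptotic cells only, at a value close to 0. The part of thymocytes, T cells and neutrophils in the Rgs18 values was not tested. Platelet markers, 5 of 6 with a row, summed to 108, 636 and 702 FPKM. Nearly all of that sum was Pf4, while Gp9 and Treml1 were listed at 0 in all libraries and Itga2b was at 0.488, 0 and 0 FPKM. With apoptotic cells, where Rgs18 stood at 16.5 FPKM, the only other platelet marker above 0 was Ppbp, at 0.789 FPKM. NK-cell markers, 4 of 4 with a row, summed to 0.838, 1.97 and 0 FPKM.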

How the data were processed

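The deposited tables give 1 value per gene symbol for each of 3 libraries. No unit is written in them. They were taken as FPKM made by the authors, since Cufflinks 2.2.1, whose output is FPKM, stands in the submitters' processing notes beside TopHat2 2.1.0, cutadapt 1.14, Cuffdiff and the build mm10. The sources used here give no options, annotation or strandedness, so reads of overlapping genes or close copies may not be separated.

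Ratios were log2 of (FPKM + 1) over (FPKM + 1), a pseudocount of 1, for genes above 0 in both libraries whose mean across libraries reached 1 FPKM, and at least 2-fold was counted. No test was possible with 1 library per group. The members and the lists were chosen with earlier results of these data known. The named genes were all members, other family genes above 0, up to 4 genes with the largest ratios per list and the 3 nearest in pattern, leaving out small RNAs and uncharacterised models; examples from the marker lists were chosen after their values were seen, and 1 listed marker is not reported here. The ratio calls and the step estimate were tested on simulated data with exact steps, known lengths and a searched offset. That setting differs from the fit used here, so the simulation does not show how accurate the read numbers are. The step was fitted after 200 bases were taken off each transcript's length, on values under 5.5 reads. Positions are from GENCODE M21, and promoter windows from RefSeq. Python 3.11.15, numpy 2.4.6, pandas 2.3.3, scipy 1.17.1 and matplotlib 3.10.9 were used. Other settings tried were a pseudocount of 0.1 or 5, a minimum mean of 5 FPKM or none, 3 scalings, a listed 0 taken as a value, and thresholds of 1.5-fold and 4-fold.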

Additional observations from a re-analysis of the deposited data

How the results depend on the processing

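The ranges below are over 8 alternatives that keep the 2-fold threshold. Each of the 9 member ratios kept its sign, but only the 3 scalings could have changed one. A pseudocount, a filter or the handling of a listed 0 cannot change the sign of a member ratio. For apoptotic cells against untreated, Rgs16 ranged from -4.44 to -2.62, Rgs18 from 1.63 to 3.01 and Rgs2 from -0.26 to -0.05 (log2). For LPS against untreated, Rgs16 ranged from -3.47 to -2.31, Rgs2 from -3.12 to -1.98 and Rgs18 from -2.15 to -0.38. Rgs18 was not 2-fold lower there with a pseudocount of 5 (-0.38) or median-of-ratios scaling (-0.84). For apoptotic cells against LPS, Rgs2 ranged from 1.76 to 2.86, Rgs18 from 2.004 to 5.16 and Rgs16 from -1.002 to -0.31. With a listed 0 taken as a value, Rgs1 would count as higher with LPS than in either other library. Over all settings, thresholds included, the counts of all genes higher and lower ran from 96 to 2682 and 143 to 1378 (apoptotic cells against untreated), 68 to 2605 and 194 to 1674 (LPS against untreated), and 148 to 1741 and 90 to 1423 (apoptotic cells against LPS), against 418 and 554, 291 and 896, and 722 and 255 as reported. No library could be left out, and no paired analysis was possible because each group has 1 library. Depth limits Rgs14, and Rgs18 with LPS, to about 3 and 2 reads.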

Other observations

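Some receptor and signalling genes upstream or downstream of the RGS proteins had no ratio against the untreated library because of a listed 0. Their values are given here without that comparison. The formyl peptide receptor gene Fpr2 and the nucleotide receptor gene P2ry2 stood at 29.9 and 9.14 FPKM without treatment and were listed at 0 in both treated libraries. The nucleotide receptor gene P2ry6 and the adenosine receptor gene Adora2a were above 0 only with apoptotic cells, at 15.9 and 5.64 FPKM. Ccr7, the receptor that guides cells to lymph nodes, was listed at 0, 24.0 and 54.4 FPKM in the order untreated, apoptotic cells and LPS. Between the treated libraries Ccr7 had a ratio (-1.15, apoptotic cells against LPS) and is among the receptors counted as lower above. With LPS alone, the adenylyl cyclase gene Adcy7 was listed at 9.70 FPKM, the Gq subunit gene Gnaq at 21.8 FPKM and the phosphoinositide 3-kinase adaptor gene Pik3r6 at 5.21 FPKM. These genes were chosen after their values were seen.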
